A study of Xenopus laevis with 11 samples.

Results

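The Hox and Cdx genes of the African clawed frog Xenopus laevis were measured by 31 of the 15491 gene probe sets of an Affymetrix array. A probe set was included where the platform gave it exactly 1 gene symbol and that symbol read hox, a letter from a to d and a number, or cdx and a number. The set held 28 Hox probe sets for 21 symbols and 3 Cdx probe sets for 2 symbols. This frog is allotetraploid, so many genes exist as a long-chromosome copy (.L) and a short-chromosome copy (.S), and without these suffixes the 23 symbols named 21 genes. The RefSeq gene table lists 62 Hox and Cdx genes for this species, so many were not analysed here, among them every Hox gene of paralog group 1, which had 0 probe sets. Of the probe sets, 3 carried no .L or .S suffix in the platform's annotation, namely 1 for hoxb9 and the others for hoxd9.

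Hox genes encode homeodomain transcription factors that lie in clusters, and their order along a cluster follows the order of their expression along the body axis, with low paralog numbers in the hindbrain and high numbers in the trunk and tail. Cdx genes encode related homeodomain factors of the posterior embryo, which act upstream of posterior Hox genes in the frog. Wnt, FGF and retinoic acid signals are known inputs to both families, and the most anterior neural tissue normally lacks their transcripts.

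The arrays compared tissues dissected around the induction of the neural crest, the migratory cells that form at the edge of the neural plate. Embryos were grown at 15 °C, and no treatment or genetic change is named in the labels. Of the 11 arrays, 2 held stage 12 neural plate, 3 held neural border at stage 14 and 2 at stage 18, 3 held the anterior neural fold at stage 18, and 1 held animal cap explants of stage 14. Per the study's design text, the anterior fold is a part of the neural border that makes no crest, and the caps turn into epidermis. The plate is the only stage 12 tissue, so it differs from every other tissue in both place and stage, which cannot be told apart. The same holds for the anterior fold against the stage 14 border and the cap. The labels speak of biological replicates without naming separate clutches or animals, and the p-values therefore measure the spread among these arrays alone, which may be technical.

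All levels below are log2 intensities, and each probe set was compared with itself on other arrays only. The arrays of a group correlated at r = 0.983 to 0.993 over all probe sets, and array medians lay between 4.94 and 5.04. A group mean was called above background where it exceeded 3.72, the 95th percentile of 17 tag control probe sets that should bind no frog transcript. A summed level is the log2 of the summed unlogged intensities of a list, so its brightest probe sets weigh most. For 20 border and crest marker probe sets it was 11.97 to 12.31 in the border arrays of both stages. In the other arrays it was 10.25 to 11.21. The summed level of 16 epidermal marker probe sets was highest in the animal cap, at 15.25. In dissected tissue, fewer cells of a type and less RNA per cell cannot be told apart.

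Transcripts of the Hox and Cdx genes were at or near background in much of the data. A group mean was above background in at least 1 tissue for 17 of the 31 probe sets (54.8%), against 78.1% of all 15491. Of these, 4 were above background in all 5 tissues, namely hoxb9, hoxd10.L, hoxd13.S and 1 of the probe sets for hoxd8.L, and 13 were above it in some tissues. The stage 18 border had 11 probe sets above background, the animal cap 10, the stage 12 plate 10, the stage 14 border 9 and the anterior fold 4. Tag controls ran higher on the cap array, with a 95th percentile of 4.09 against 3.58 to 3.83 on the others. The cap levels of hoxb4.S (3.77), hoxb5.S (3.86) and some hoxa11.S probe sets (3.78 and 3.87) lay below 4.09. The cap's count of 10 is uncertain in that respect. The 4 probe sets of the anterior fold were those above background everywhere. A test in limma passed an adjusted p of 0.05 in 61 of 310 combinations of a probe set and a tissue pair, while 29.4% of all such combinations passed over the whole array. These 61 tests came from 15 probe sets, and the 16 others passed in no pair. The arrays of the pair did not overlap in any of the 61. Overlap was absent in 177 of the 310 combinations, passed or not, so it adds little with so few arrays per tissue. Its share over the whole array is not given here, and absence of overlap is used below as description only.

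**Figure D1:**
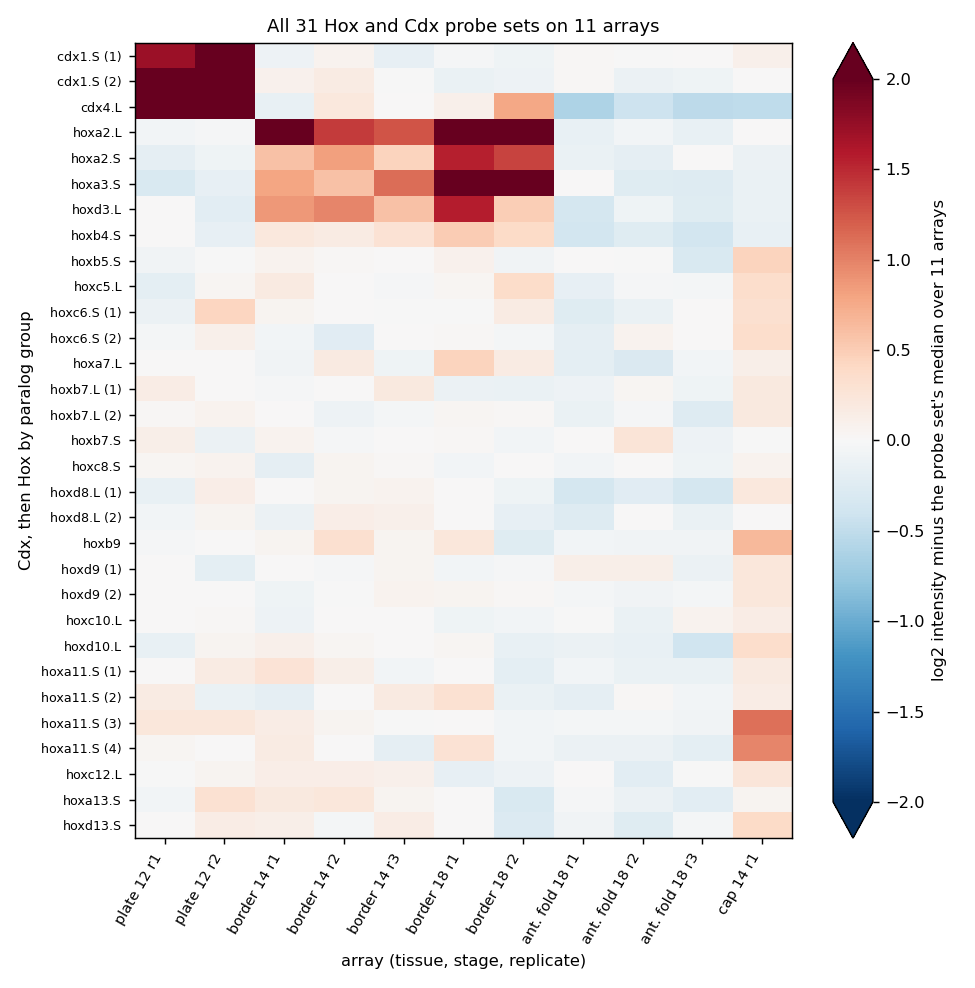
Level of each of the 31 Hox and Cdx probe sets (rows) on each of the 11 arrays (columns, grouped by tissue), as log2 intensity minus that probe set's median over the arrays. The cdx1.S and cdx4.L probe sets stand out in the stage 12 plate, and the hoxa2, hoxa3.S and hoxd3.L probe sets in the border arrays. A pair of the hoxa11.S probe sets stands out in the animal cap, and the others for that gene do not.

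The Cdx probe sets were highest in the stage 12 neural plate. cdx1.S encodes a Cdx factor of the posterior gastrula and was measured by a pair of probe sets. The brighter of them read 6.55 and 7.29 in the stage 12 plate, and 2.88, 2.95 and 2.78 in the stage 14 border. It read 2.65 and 2.69 in the stage 18 border, 2.80, 2.67 and 2.70 in the anterior fold, and 2.78 in the animal cap. Both plate arrays thus stood far above background and all 9 other arrays lay within it, with no overlap. The plate level was 6.92 ± 0.53 (SD, n = 2), and the difference of stage 14 border from plate was -4.06 with a standard error of 0.18 (limma, adjusted p = 6.08e-07). Since the border level was within background, the fall is best given as at least 9.18-fold. Such a bound sets each low array at the higher of its own level and the lowest level counted as above background. It is used below for every fold where 1 of the tissues lay within background, while log2 differences are given as measured.

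The dimmer cdx1.S probe set was likewise highest in the plate. It read 4.65 and 5.25 in the plate, and from 2.77 to 3.04 on the 9 other arrays, so plate and remaining tissues did not overlap here either. It fell by 2.08 on the log2 scale from plate to stage 14 border, or at least 2.35-fold, with an adjusted p of 9.5e-06 in limma. Against the animal cap, the plate was higher by 4.14 for the brighter probe set (limma, adjusted p = 3.97e-06) and by 1.91 for the dimmer (limma, adjusted p = 0.000159). The cap was within background for both, so these log2 differences are not read as folds. Plate and cap also differ in stage (12 and 14), so tissue and stage cannot be told apart here. Across the 11 arrays the 2 probe sets correlated at r = 0.993, a description that rests on the separation of the plate arrays from the rest.

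cdx4.L, the other Cdx gene on the array, encodes a posterior factor that activates Hox genes in the frog. It read 5.63 and 6.48 in the plate, 3.39, 3.76 and 3.54 in the stage 14 border, and 3.65 and 4.32 in the stage 18 border. It read 2.93, 3.13 and 3.01 in the anterior fold and 3.04 in the animal cap. The plate arrays were the highest again, but the mean of the stage 18 border was above background too, with 1 of its arrays above and the other below. The level in the stage 14 border was lower than in the plate by 2.49 (standard error 0.26), at least 4.99-fold, with an adjusted p of 4.78e-05 in limma. The stage 18 border was 4.2-fold lower than the plate (limma, adjusted p = 0.000229). The difference between stage 18 border and anterior fold was 0.96, with a 95% interval of 0.38 to 1.54, and did not pass (limma, adjusted p = 0.0615), although the arrays of the groups did not overlap. The difference depended on the stage 18 border arrays, at 1.29 without replicate 1 and 0.62 without replicate 2. Leaving out a plate array cannot move this difference, since it rests on other tissues, and changes only the shared spread. The test passed under some of the alternatives described at the end. With any 1 fold array left out it did not pass (limma, adjusted p 0.114 to 0.155). From stage 14 to stage 18 the border difference was 0.42 and did not pass (limma, adjusted p = 0.408).

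Some mesoderm markers were also highest in the stage 12 plate. Of 15 probe sets for posterior and paraxial mesoderm, 3 fell from plate to stage 14 border (21.4% of all probe sets did), 0 rose and 12 did not pass, with a median difference of -0.01. The summed level of the list was 7.65 to 7.86 in the plate and 7.23 to 7.28 in the stage 14 border. It was 7.16 to 7.19 in the stage 18 border, 7.15 to 7.20 in the anterior fold and 7.41 in the animal cap. tbxt.S, the Brachyury gene of the early mesoderm and tailbud, read 6.30 and 5.56 in the plate and fell at least 4.61-fold to the stage 14 border (limma, adjusted p = 9.74e-06). The others that fell were myf5.L, a muscle regulator, from a mean of 4.02 to 3.29 (limma, adjusted p = 0.0011), and eomes.L, an early mesoderm regulator, from 3.77 to 3.25 (limma, adjusted p = 0.00868). fgf4.L was above background in the plate too, at 4.15, and differed little in the stage 14 border, at 4.13. The plate means of the 11 remaining probe sets, those for msgn1.L, tbx6.L and both myod1 copies among them, were within background.

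Of 7 probe sets for axial mesoderm, 2 fell from plate to stage 14 border (21.4% of all did) and 0 rose (19.6% did). Their summed level was 8.27 and 8.76 in the plate and 6.24 to 6.47 in the stage 14 border. It was 6.24 to 6.45 in the stage 18 border, 7.91 to 8.69 in the fold and 6.38 in the cap. Both that fell were probe sets for admp.S, which encodes a BMP-like signal of the organizer, and the brighter read 7.76 and 8.25 in the plate and fell 12.7-fold (limma, adjusted p = 4.82e-05). Between the plate arrays, the Cdx probe sets, admp.S and the summed axial level were higher in replicate 2, and tbxt.S and the summed posterior and paraxial level in replicate 1. The part of mesoderm in the Cdx result was not tested.

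The Hox genes of paralog groups 2 to 4 were highest in the neural border. Their 5 probe sets measured hoxa2.L, hoxa2.S, hoxa3.S, hoxd3.L and hoxb4.S. Of their 50 tests 31 passed, out of the 61 passed tests of the set, while 29.4% of all combinations passed over the whole array. These groups were set apart after the values were seen, so the count is high by selection. hoxa2, the most anterior Hox gene measured, patterns the hindbrain and the crest of the second pharyngeal arch in the frog and the mouse. hoxa2.L read 4.67, 3.89 and 3.74 in the stage 14 border, and 5.73 and 4.92 in the stage 18 border. It read 2.42 and 2.46 in the plate, 2.33, 2.42 and 2.34 in the anterior fold, and 2.48 in the animal cap. All 5 border arrays were above background and all 6 others far within it. Replicate 3 of the stage 14 border was barely above it, and below 3.78, the 95th percentile of its own array's tag controls. The stage 14 border exceeded the plate by 1.66 with a standard error of 0.28 (limma, adjusted p = 0.001), which is at least 1.3-fold. The stage 18 border exceeded the stage 14 border 2.34-fold (limma, adjusted p = 0.0329), with no overlap but with 0.80 between its own arrays. This step did not pass when any 1 of 7 arrays was left out, namely replicate 2 or 3 of the stage 14 border, replicate 1 of the stage 18 border, either plate array, or replicate 2 or 3 of the fold (limma, adjusted p 0.0521 to 0.186). The value moved most without replicate 1 of the stage 18 border, to 0.83.

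hoxa2.S, the short-chromosome copy, was dimmer. It read 3.17, 3.40 and 3.02 in the stage 14 border, and 4.13 and 3.93 in the stage 18 border. It read 2.40 and 2.49 in the plate, 2.45, 2.40 and 2.58 in the anterior fold, and 2.47 in the animal cap. Its order of tissues was thus that of hoxa2.L at both border stages, but its mean was above background only in the stage 18 border, among the 5 tissues. The stage 14 border passed against the plate (limma, adjusted p = 0.00132) with both levels within background, so no fold is given. The stage 18 border was above the stage 14 border by 0.83, at least 1.24-fold (limma, adjusted p = 0.00777). Whether each probe set binds transcripts of 1 copy alone was not tested, so levels of .L and .S copies are uncertain in that respect.

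hoxa3.S, whose mouse counterpart shapes the third pharyngeal arch and its derivatives, gave the clearest step between the border stages. It read 3.89, 3.68 and 4.21 at stage 14, and 5.52 and 5.27 at stage 18. It read 2.79 and 2.94 in the plate, 3.10, 2.85 and 2.84 in the anterior fold, and 2.96 in the animal cap. The stage 18 arrays lay close together and well above all 3 stage 14 arrays, which in turn exceeded all 6 arrays outside the border. The rise from plate to stage 14 border was 1.06 with a standard error of 0.17, at least 1.15-fold (limma, adjusted p = 0.000623). The rise from stage 14 to stage 18 was 2.76-fold (limma, adjusted p = 0.00204). In the RefSeq table hoxa2.S and hoxa3.S are neighbours.

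hoxd3.L, whose mouse counterpart patterns the upper neck vertebrae, was also higher in the border, with a wider spread. It read 3.84, 3.96 and 3.57 in the stage 14 border, and 4.54 and 3.47 in the stage 18 border. It read 2.98 and 2.76 in the plate, 2.63, 2.89 and 2.74 in the anterior fold, and 2.85 in the animal cap. The border arrays all exceeded the 6 others, yet the replicates of the stage 18 border lay on either side of background, 1.08 apart. The stage 14 border was at least 1.05-fold above the plate (limma, adjusted p = 0.0181), but did not pass without either plate array or without stage 14 border replicate 2 (limma, adjusted p 0.0528 to 0.111). Between border stages the difference was 0.22, with a 95% interval of -0.37 to 0.81 and an adjusted p of 0.717 in limma.

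hoxb4.S, a gene of the posterior hindbrain and anterior trunk, moved least of the 5. It read 4.12, 4.07 and 4.20 in the stage 14 border, and 4.41 and 4.29 in the stage 18 border. It read 3.91 and 3.74 in the plate, 3.77 in the animal cap, and 3.55, 3.67 and 3.54 in the anterior fold. The group means ran from the stage 18 border through the stage 14 border, plate and animal cap to the fold, with the replicates of each tissue close together. The steps from plate to cap (0.06, with overlap) and from cap to fold (0.18) did not pass. The rise from plate to stage 14 border was 1.24-fold (limma, adjusted p = 0.0445) but did not pass without any 1 of 8 arrays, which were both plate arrays and all those of the stage 14 border and the fold (limma, adjusted p 0.0538 to 0.24). The border stages differed by 0.22, which did not pass (limma, adjusted p = 0.285).

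**Figure D2:**
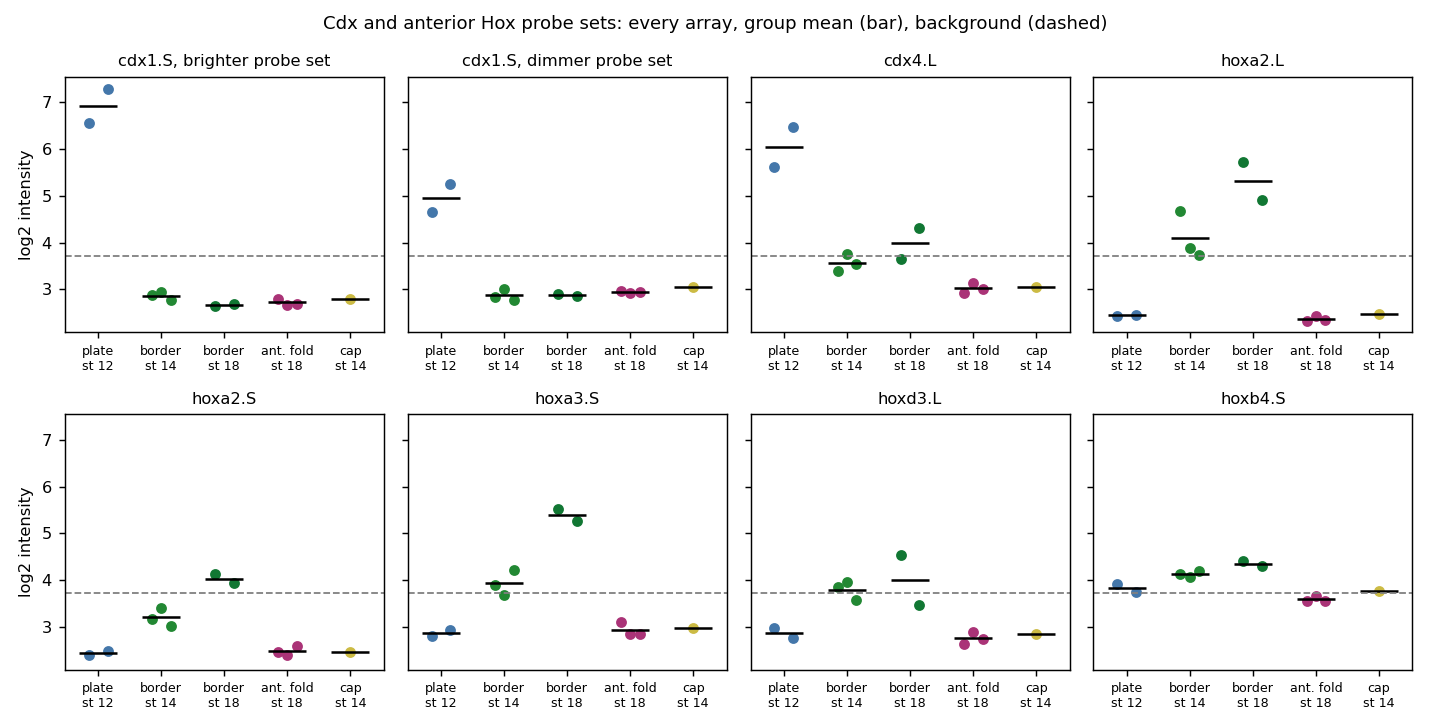
Log2 intensity of 8 Cdx and Hox probe sets on each of the 11 arrays, by tissue; points are arrays, bars are group means and the dashed line is the background level of 3.72. Both cdx1.S probe sets and cdx4.L are highest in the stage 12 plate, while hoxa2.L, hoxa2.S, hoxa3.S, hoxd3.L and hoxb4.S are highest in the border arrays.

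In the comparison of stage 14 border with stage 12 plate, 8 of the 31 probe sets passed (25.8%), against 41.0% of all probe sets. The 5 that rose were hoxa2.L, hoxa2.S, hoxa3.S, hoxd3.L and hoxb4.S, where 19.6% of all probe sets rose. The 3 that fell were the Cdx probe sets, where 21.4% of all probe sets fell. The share that passed was thus below that of the array, and the median difference of the 31 was 0.02, beside 0.01 for all probe sets. The directions split by family, with each passed Hox probe set higher in the border and each Cdx probe set higher in the plate. Over the same step border and crest markers rose for 15 of 20 probe sets. Their summed level was 10.25 to 10.48 in the plate and 11.97 to 12.21 in the border. Epidermal markers rose for 13 of 16, with a summed level of 12.83 to 12.84 in the plate and 13.77 to 14.14 in the border. The part of either in the Hox result was not tested.

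From the stage 14 to the stage 18 border, 3 of 31 probe sets passed (9.68%), against 6.56% of all. They were hoxa2.L, hoxa2.S and hoxa3.S, all higher at stage 18, a direction shown by 3.78% of all probe sets. No Cdx probe set and no Hox gene of a paralog group above 3 passed. Epidermal markers rose over the same step, with 8 of 16 probe sets higher. Their summed level was 13.77 to 14.14 at stage 14 and 14.74 to 15.06 at stage 18. Border and crest markers rose for 4 of 20 probe sets, with a summed level of 11.97 to 12.21 at stage 14 and 12.20 to 12.31 at stage 18. The part of either in the Hox result was not tested.

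Between the stage 18 tissues, 5 of 31 probe sets passed (16.1%), all higher in the border, where 5.97% of all probe sets passed and 3.31% were higher in the border. These were again hoxa2.L, hoxa2.S, hoxa3.S, hoxd3.L and hoxb4.S. hoxa2.L was at least 3.03-fold higher (limma, adjusted p = 0.000203) and hoxa3.S at least 3.18-fold higher (limma, adjusted p = 2.31e-05). hoxa2.S was at least 1.24-fold higher (limma, adjusted p = 0.000115) and hoxb4.S at least 1.54-fold higher (limma, adjusted p = 0.00214). For hoxd3.L the bound was 1.22-fold (limma, adjusted p = 0.0209), and the call was lost without stage 18 border replicate 1 or fold replicate 1 or 3 (limma, adjusted p 0.0565 to 0.0666). The median difference of the 5 was 1.55, which is high by selection since they are the ones that passed here. That of all 31 was 0.09 against 0.00 for the array. This comparison shares the stage 18 border arrays with the one between border stages, which in turn shares the stage 14 border arrays with the one against the plate. Border and crest markers were higher in the border than in the fold for 14 of 20 probe sets, and their part in the result was not tested.

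**Figure D3:**
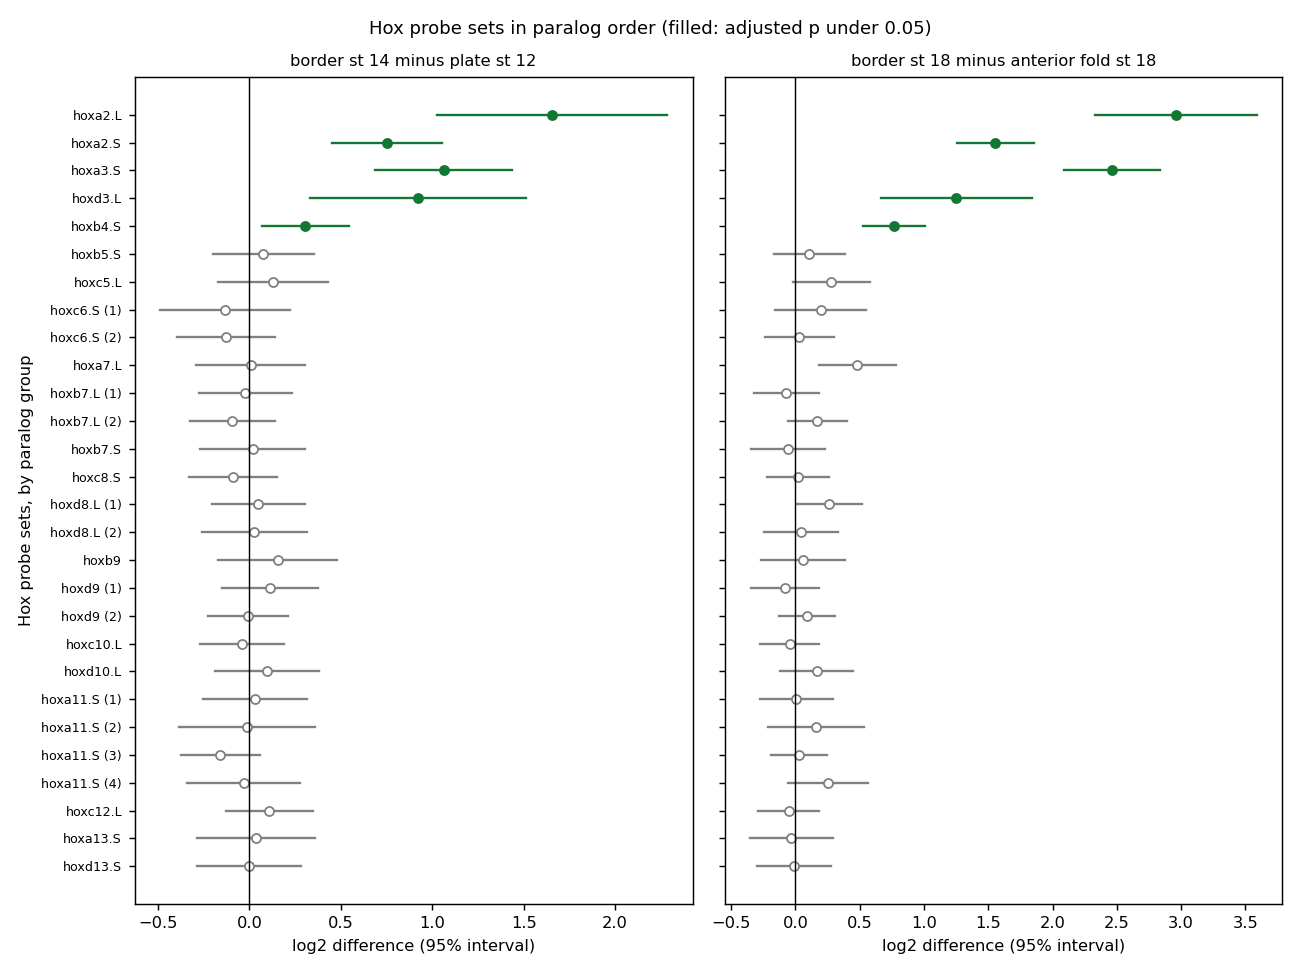
Log2 difference of each of the 28 Hox probe sets, in order of paralog group, for the stage 14 border minus the stage 12 plate and the stage 18 border minus the anterior fold; bars are 95% intervals from limma and filled points have an adjusted p under 0.05. Filled points occur only in paralog groups 2 to 4, with every one of them above 0.

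The Hox genes of paralog groups 5 to 13 had 23 probe sets. Of these, 0 passed between stage 14 border and plate, between the border stages, or between stage 18 border and fold. In the same comparisons 41.0%, 6.56% and 5.97% of all probe sets passed, so 0 of 23 says little where few passed. The division at group 4 was made after the values were seen. Of the 11 probe sets in groups 5 to 8, the trunk genes, 3 were above background in at least 1 tissue and the array values ran from 2.60 to 4.56. Of the 12 in groups 9 to 13, the genes of the posterior trunk and tail, 6 were above background somewhere and the values ran from 2.57 to 5.07. Leaving the animal cap aside, the group means of a probe set spanned at most 0.48 in groups 5 to 8 and at most 0.32 in groups 9 to 13. The median differences were 0.01 in both subsets for border minus plate, and 0.11 and 0.02 for stage 18 border minus fold. Levels within background set only an upper limit on a transcript.

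The posterior Hox probe sets tended to be highest in the single animal cap array. That array was the highest tissue for 19 of the 23 (82.6%), against 30.3% of all probe sets and 38.3% of 7654 probe sets with a mean level of at most 5. The median excess of the cap over the mean of the other tissues was 0.26, beside 0.03 and 0.09 in those sets. The background also ran high on this array, with a median tag control level of 3.23 against 2.94 to 3.18 on the others and a median dim probe set level of 3.18 against 3.02 to 3.10. The part of that background in the pattern was not tested. With 1 array, the cap has no spread of its own, and limma lends it the spread of the other tissues.

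In the comparison of stage 14 border with animal cap, 5 of 31 probe sets passed (16.1%), against 30.9% of all. hoxa2.L, hoxa2.S and hoxa3.S were higher in the border (15.1% of all were), and a pair of hoxa11.S probe sets were lower (15.8% of all were). Between plate and animal cap, 7 of 31 passed (22.6%), against 31.3% of all, and the 3 that were higher in the plate (16.7% of all were) were the Cdx probe sets. The 4 that were lower in the plate (14.6% of all were) were hoxb5.S, hoxb9 and the same pair for hoxa11.S. Of the 18 passed tests among groups 5 to 13, 17 were against the animal cap. There were 110 tests in groups 5 to 8, of which 3 passed, and 120 in groups 9 to 13, of which 15 passed. Over the whole array, 30.9% to 38.6% of probe sets passed against the cap, depending on the other tissue.

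hoxa11.S, whose mouse counterpart acts in limb and kidney, had the largest of these differences. The RefSeq table places it beside hoxa9.L and hoxa13.L, so its .S suffix is uncertain. Its probe set with the higher level read 4.75 in the animal cap, 3.87 and 3.88 in the plate, and 3.80, 3.71 and 3.64 in the stage 14 border. It read 3.65 and 3.60 in the stage 18 border and 3.60, 3.60 and 3.57 in the anterior fold. The cap stood well above every other array, and the remaining tissues lay close to background. The cap exceeded the stage 14 border at least 1.99-fold (limma, adjusted p = 0.000214) and the plate 1.83-fold (limma, adjusted p = 0.00079). The other hoxa11.S probe set of the pair read 3.87 in the cap and from 2.70 to 3.19 on all 10 other arrays. Its bound was 1.11-fold (limma, adjusted p = 0.00225 against the stage 14 border). That bound uses the common background, and the cap level lay below the 95th percentile of its own array's tag controls. The remaining probe sets for this gene, with cap levels of 3.78 and 3.60, passed in no pair, so the probe sets for hoxa11.S disagreed.

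The other members of groups 5 to 13 that differed from the cap did so by less than 1 log2 unit. hoxb9, a posterior trunk gene, read 5.07 in the cap, 4.40 and 4.42 in the plate, 4.47, 4.74 and 4.48 in the stage 14 border, 4.64 and 4.19 in the stage 18 border, and 4.37, 4.36 and 4.35 in the anterior fold. It passed against plate, stage 18 border and fold, with adjusted p-values in limma of 0.0276, 0.0277 and 0.0124. The first was lost without either plate array and the next without stage 18 border replicate 2, with adjusted p-values in limma from 0.0671 to 0.104. hoxd13.S, the most posterior gene measured on the D cluster, read 5.02 in the cap, 4.63 and 4.78 in the plate, and 4.75, 4.59 and 4.78 in the stage 14 border. It read 4.64 and 4.36 in the stage 18 border and 4.57, 4.38 and 4.59 in the fold, with passes against the stage 18 border (limma, adjusted p = 0.0422) and the fold (limma, adjusted p = 0.0321). The former was lost without any 1 of 5 arrays, namely stage 14 border replicate 1 or 3, stage 18 border replicate 2, or fold replicate 1 or 3 (limma, adjusted p 0.0517 to 0.156), and the latter without fold replicate 2 (limma, adjusted p = 0.0753). For both genes the cap was the highest of the 11 arrays.

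A further 3 genes passed against the cap, chiefly in the fold. hoxd10.L, of the posterior trunk and limbs in other vertebrates, read 4.61 in the cap, 4.12 and 4.33 in the plate, 4.37, 4.31 and 4.27 in the stage 14 border, 4.31 and 4.11 in the stage 18 border, and 4.14, 4.12 and 3.87 in the fold. It was lower in the fold than in the cap by 0.57 (limma, adjusted p = 0.0186). For hoxd8.L, the probe set above background everywhere passed in no pair, and its other probe set, within background in the fold, read 4.15 in the cap, 3.78 and 4.06 in the plate, 3.93, 3.98 and 3.99 in the stage 14 border, 3.93 and 3.85 in the stage 18 border, and 3.58, 3.71 and 3.58 in the fold. Its difference of fold from cap was -0.52 (limma, adjusted p = 0.0169). hoxb5.S, a trunk gene and the neighbour of hoxb4.S, read 3.86 in the cap and from 3.11 to 3.51 on all other arrays. It was lower in the fold (limma, adjusted p = 0.0198) and the plate (limma, adjusted p = 0.0489), at least 1.1-fold in each. These bounds use the common background, and the cap level lay below the 95th percentile of its own array's tag controls. The difference from the plate was lost without any 1 of 9 arrays, with only fold replicate 3 of those tried keeping it (limma, adjusted p 0.051 to 0.14).

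The remaining pairs again involved these probe sets. The stage 18 border differed from the plate in 8 of 31 probe sets, where 44.5% of all passed, with 5 higher (22.1% of all) and 3 lower (22.4% of all). It differed from the cap in 9, where 33.2% passed, with 5 higher (16.3% of all) and 4 lower (16.9% of all). The fold was lower than the plate in 4 probe sets, where 47.5% of all passed and 24.2% were lower. They were the Cdx probe sets and the higher hoxa11.S probe set (-0.28, limma, adjusted p = 0.0368). The latter did not pass under 10 of 17 alternatives, among them those without any 1 fold array. The fold was lower than the stage 14 border in 5, where 14.8% passed and 7.35% were lower. It was lower than the cap in 7, where 38.6% passed and 19.9% were lower. In each of these fold pairs 0 of the 31 were higher in the fold, where 23.4%, 7.4% and 18.7% of all probe sets were. Against plate and cap, the passed share of the 31 was below that of the array, at 12.9% and 22.6%. Against the stage 14 border it was close to it, at 16.1%. Every passed test of the 31 that involved the anterior fold placed it below the other tissue.

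Among genes outside the set, the most alike pattern over the 11 arrays was described for each probe set whose group means spanned at least 1. These correlations rest on a few tissue groups, and their points share arrays and processing. sox10.L, a transcription factor gene of the crest, was the most alike for hoxa2.L (r = 0.978) and hoxa2.S (r = 0.982), and was also among the 3 most alike for hoxa3.S (r = 0.960). Its mean level was 2.58 in the cap, 2.74 in the plate, 5.25 in the stage 14 border, 7.02 in the stage 18 border and 3.09 in the fold. For hoxa3.S the closest was tshz3.L (r = 0.967), a zinc finger gene, followed by fst.L (r = 0.965), which encodes follistatin. For hoxd3.L it was neurod1.L (r = 0.941), a neuronal transcription factor gene.

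The Cdx genes had other neighbours in pattern. For the dimmer cdx1.S probe set the most alike was foxa4.L (r = 0.993), a forkhead gene of the dorsal midline, and for the brighter it was foxd4l1.1.S (r = 0.993), a forkhead gene of the early neural plate. For cdx4.L it was sall3.L (r = 0.985), a zinc finger gene. Within the set, hoxa2.L correlated with hoxa2.S at r = 0.96, with hoxa3.S at 0.95 and with hoxd3.L at 0.92. The Cdx probe sets correlated with these 4 Hox probe sets at -0.42 to -0.08. The higher hoxa11.S probe set was most like bambi.L (r = 0.980), which encodes an inhibitor of BMP and TGF-beta receptors.

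Genes of retinoic acid metabolism, an input to the anterior Hox genes, differed between the same tissues in both directions. Of 18 probe sets for 12 of 18 listed genes, 2 rose and 8 fell from plate to stage 14 border. Of all probe sets, 19.6% rose and 21.4% fell. The median difference was -0.06 beside 0.01 for the array. cyp26a1.S, which encodes an enzyme that degrades the signal, read 9.14 and 9.18 in the plate and 6.11, 5.98 and 5.99 in the stage 14 border. It fell 8.76-fold (limma, adjusted p = 1.65e-07), as the Cdx genes did. cyp26c1.S, which encodes another enzyme of that kind, rose 13.7-fold over the same step (limma, adjusted p = 4.31e-05), from 5.55 and 7.09 to 10.27, 10.21 and 9.80. At stage 18, cyp26c1.S was 7.5-fold higher in the border than in the fold (limma, adjusted p = 0.0015). aldh1a2.L, which encodes the enzyme that makes retinoic acid, was on the other side. Its brighter probe set read 3.94 and 3.71 in the stage 18 border and 6.68, 6.46 and 6.74 in the fold, a 6.97-fold difference (limma, adjusted p = 1.84e-05). At stage 18, the 5 Hox probe sets of paralog groups 2 to 4 were thus higher in the border, and aldh1a2.L was higher in the fold. The part of retinoic acid in the Hox result was not tested.

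Part of the Hox cofactors and hindbrain genes were higher in the border. TALE homeodomain proteins bind DNA together with Hox proteins. Of their 7 probe sets, 4 rose from plate to stage 14 border (19.6% of all probe sets did). From stage 14 to stage 18, 1 rose (3.78% of all), and 3 were higher in the stage 18 border than in the fold (3.31% of all). meis3.S, a TALE gene that promotes hindbrain fate in the frog, read 7.38 and 7.40 in the stage 18 border and 5.08, 4.60 and 4.85 in the fold. The difference was 5.84-fold (limma, adjusted p = 6.61e-06). Of 10 probe sets for hindbrain segment regulators, 5 rose from plate to stage 14 border and 5 were higher in the stage 18 border than in the fold. In both comparisons 0 were lower and 5 did not pass, and the shares of all probe sets are those given for the TALE genes. Between plate and stage 18 border 7 rose (22.1% of all) and 1 fell (22.4% of all), irx2.L, from a mean of 9.11 to 7.84. fgf3.L, a signal of the hindbrain, was among both, at least 2.08-fold (limma, adjusted p = 0.000207) and at least 2.94-fold (limma, adjusted p = 0.000606). egr2.L, which marks particular hindbrain segments, had no group mean above background, but that of the stage 18 border lay at the limit. Its stage 18 border arrays read 3.75 and 3.69, beside a fold mean of 3.21.

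Posterior Wnt and FGF genes differed in both directions between plate and border. Of 23 probe sets, 8 rose and 6 fell from plate to stage 14 border, where 19.6% of all probe sets rose and 21.4% fell. In the stage 18 border 7 were higher and 2 lower than in the fold, beside 3.31% and 2.67% of all. There 14 did not pass and the median difference was 0.04. wnt8a.L, a posteriorizing signal, had a mean of 4.02 in the plate and read 7.70, 8.08 and 7.55 in the stage 14 border, and 6.44 and 6.64 in the stage 18 border. It rose 13.5-fold from plate to stage 14 border (limma, adjusted p = 4.39e-07) and fell by 1.23 on the log2 scale by stage 18 (limma, adjusted p = 0.00329), a step over which hoxa2.L, hoxa2.S and hoxa3.S rose. wnt3a.S, another such signal, rose by 0.86 over the latter step (limma, adjusted p = 0.0167). Anterior neural genes were lower in the stage 18 border than in the fold for 27 of 34 probe sets and higher for 0, with a median difference of -2.12 beside 0.00 for the array. six6.L, an eye and forebrain gene, was at least 44.7-fold lower (limma, adjusted p = 1.47e-06).

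**Figure D4:**
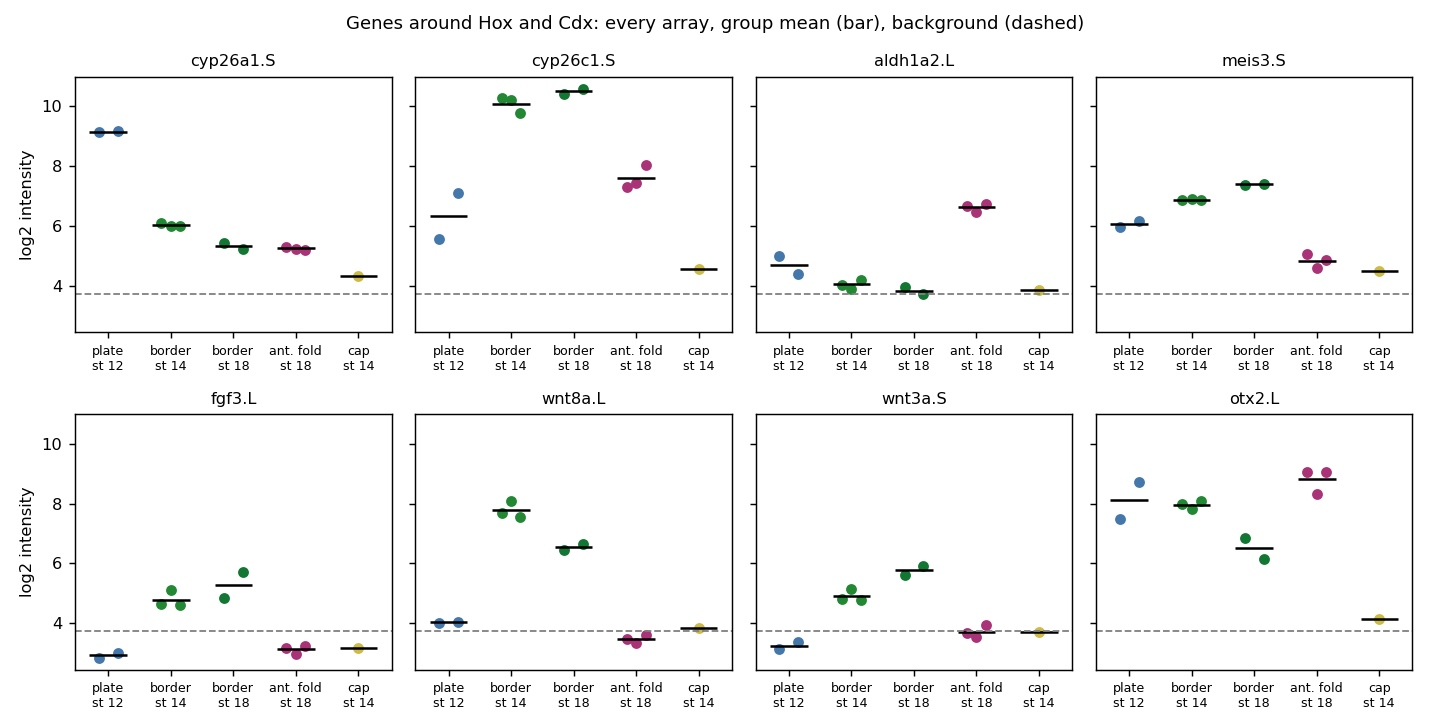
Log2 intensity of 8 probe sets of genes that act with or around the Hox and Cdx genes, on each of the 11 arrays by tissue; points are arrays, bars are group means and the dashed line is the background level of 3.72. cyp26a1.S is highest in the stage 12 plate, cyp26c1.S, meis3.S, fgf3.L, wnt8a.L and wnt3a.S in the border arrays, and aldh1a2.L in the anterior fold. The mean of otx2.L is highest in the fold too, but its plate arrays overlap with those of the fold.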

How the data were processed

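RNA of 11 microdissected Xenopus laevis samples was hybridised to Affymetrix arrays, 1 array per sample, and grouped by the labels. The authors deposited 1 value per probe set and array, taken here as log2 intensities from their range of 2.13 to 13.56. Per the submitters' processing notes, R 2.14.2 was used; the background correction, summary and normalization are not given in the sources used here. Whether probe sets were filtered or centred before that is unknown, with 0 values missing. Symbols came from the platform's annotation; where a gene ID was found in the RefSeq table of assembly Xenopus_laevis_v10.1, as for 28 of the 31, its current symbol was used. Of 15611 probe sets, 120 controls were left out, and 9304 of the other 15491 had 1 symbol, 195 several and 5992 none in that annotation. A probe set listed for both hoxa2 copies is not among the 31.

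Tests used limma 3.58.1 in R 4.3.3 on the values as deposited: 11 arrays in 1 model with a mean per tissue, eBayes without trend, 6 residual and 3.75 prior degrees of freedom, two-sided p-values, and Benjamini-Hochberg adjustment over 15491 probe sets in each of 10 tissue pairs, at 0.05. The number of arrays limits precision. The code was tested on simulated data. Every member is accounted for; array values are given for those above background in at least 1 tissue and passed in at least 1 pair, the 3 most alike genes for those spanning at least 1, and at most the 3 largest passed differences per pathway list and comparison. The members and lists were chosen with earlier results of these data known. Alternatives tried were quantile normalization, median centring, trend and robust settings, dim probe sets left out, only the compared arrays, a replicate block, no animal cap, a 2-fold minimum, the highest tag control as background, and each array left out. The labels do not say whether replicate numbers pair the samples, and they were not taken as pairs. No sequence or coordinate was used.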

Additional observations from a re-analysis of the deposited data

Results flagged for a closer look

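A probe set that the platform lists for both hoxa2 copies was outside the set because it has several symbols, and it gave a strong signal. It read 6.88 and 7.04 in the stage 18 border, a mean of 6.96 ± 0.11 (SD, n = 2), and 6.05, 5.34 and 5.28 in the stage 14 border. It read 3.48 and 3.78 in the plate, 3.43, 3.65 and 3.45 in the anterior fold and 3.86 in the animal cap. The border arrays of both stages were well above all 6 others, with stage 18 above stage 14, as for hoxa2.L and hoxa2.S. The stage 18 border exceeded the stage 14 border 2.64-fold (limma, adjusted p = 0.00688), the anterior fold at least 9.41-fold (limma, adjusted p = 1.3e-05) and the animal cap 8.57-fold (limma, adjusted p = 5.67e-05). Which copy it measures cannot be told apart.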

How the results depend on the processing

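Of the 61 passed tests, 42 passed under all of the up to 17 alternatives that refitted the model, 19 did not under at least 1, and 0 reversed. With a minimum of 2-fold added, 5 probe sets passed for stage 14 border against plate, 2 for stage 14 border against cap, 3 for plate against cap and 35 tests over all 10 pairs. The matching shares of all probe sets are not given here for the 2-fold minimum. With only the arrays compared in the model, 1 passed between the border stages, where 233 of all 15491 probe sets passed. After quantile normalization, 8 passed for stage 14 border against cap, where 4728 of all passed. With the highest tag control as background, 7 probe sets were above it, not 17, and the share of all probe sets is not given here. Leaving out each array in turn gave 6 to 8 for border against plate, 2 to 3 between border stages, 4 to 6 for stage 18 border against fold, 5 to 7 for stage 14 border against cap, 5 to 7 for plate against cap, 56 to 61 in all, and 17 to 18 above background. Whole-array counts for these ranges are not given in full, but they moved too. Without replicate 3 of the stage 14 border they were 5437 for border against plate and 458 between border stages, from 6352 and 1016. With the replicate block the passed counts were 7, 2, 5, 5, 5 and 51. Over the whole array the same comparisons then gave 5848, 620, 696, 3908 and 4278 of 15491, with no total taken. Same-numbered deviations correlated at -0.10 to 0.26, and the numbers were not taken as pairs. hoxb4.S between stage 14 border and plate failed under 12 of 17 alternatives (adjusted p 0.0288 to 0.24, limma), hoxa2.L between border stages under 9 of 17, and hoxd3.L between stage 18 border and fold under 5, among them without stage 18 border replicate 1 (adjusted p = 0.0565, limma). hoxd3.L between stage 14 border and plate failed without either plate array (adjusted p 0.0591 and 0.111, limma) and without stage 14 border replicate 2 (0.0528). cdx4.L between stage 18 border and fold passed under 6. Other causes were not tested.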
